A study of Homo sapiens with 16 samples.

Results

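HMGA1, HMGA2, ARID3B, NR6A1, LIN28B, TRIM71, IGF2BP1, IGF2BP2 and IGF2BP3 are growth and embryonic genes known as targets of the let-7 microRNAs or as the family of IGF2 mRNA-binding proteins. They were taken by name, and all 9 were present, with 1 row each, in a table of 13148 genes. The cells were 293S, a human line derived from HEK293 and grown attached, which were left untreated (control) or given sodium arsenite at 1 mM over 30 minutes. Arsenite reacts with thiols and sets off oxidative stress. Sucrose gradients then separated the RNA of both treatments, so that an mRNA's place reflects how large its particles are. Each gradient was sequenced as 8 fractions, so the 16 libraries form 16 groups of 1. With no replicate, differences cannot be set against the spread between samples, and p-values are not given.

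The values are shares, that is, how each gene's total was divided, in percent, among the 8 fractions of a gradient. They carry no expression level and no read depth, so neither a change in the amount of an mRNA nor the markers of the cell line can be read from them. In bulk RNA, a small move in all cells and a large move in some cells cannot be told apart. Whether fraction 1 was the top or the bottom of the gradient is not stated in the labels.

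The let-7 microRNAs bind mRNAs through their seed, bases 2 to 8, and repress translation and stability of the mRNA as part of an Argonaute complex. They accumulate as cells differentiate, and their targets include factors that are made in the embryo and again in tumours. LIN28B blocks the maturation of let-7 while its own mRNA is a let-7 target, which closes a loop. IGF2BP proteins bind mRNAs in the cytoplasm and are known to shield them from decay.

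In the RefSeq table of GRCh38.p14 the 9 mature names of the family, let-7a to let-7g, let-7i and miR-98, shared 1 seed. The sequences of let-7a and miR-98 are shown because they define what was searched for, with the seed in capitals.
hsa-let-7a-5p: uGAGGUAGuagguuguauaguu
hsa-miR-98-5p: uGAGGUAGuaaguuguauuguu

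The 3′ untranslated region of 1 coding transcript per gene was searched, on the mRNA strand alone, for CTACCTC, the complement of the seed. A match followed by A (CTACCTCA, an 8mer) was counted apart from one followed by another base (a 7mer-m8), so no match was counted in both. All 9 mRNAs held at least 1 match and 7 held an 8mer, as against 10.1% and 3.81% of the 13049 genes with an annotated transcript. TRIM71 held 6 matches, NR6A1 5, and HMGA2, LIN28B and IGF2BP1 4 each. The other 4 mRNAs held 1. At least 4 matches were present in only 12 genes of the table, 5 of them members. The members were chosen by name as known let-7 targets or IGF2BP genes. These contrasts with the table were thus in large part set by that choice. Long regions hold more matches by length alone, and the regions of NR6A1 (5430 nt), LIN28B (4549 nt), TRIM71 (6015 nt) and IGF2BP1 (6206 nt) fell in the longest 10% of the table. In that bin 32.1% of genes had a match and 0.69% had at least 4. A match is a string of letters and was not tested for binding.

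One match of each mRNA is shown with the 14 bases before it, and for TRIM71 a close pair. Coordinates are those of GRCh38 in GENCODE release 29, and the match is in capitals. All lie in the last, untranslated part of the mRNA.
HMGA2 at chr12:65963299-65963320, plus strand: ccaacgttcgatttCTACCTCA
LIN28B at chr6:105078813-105078834, plus strand: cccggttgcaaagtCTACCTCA
NR6A1 at chr9:124522310-124522331, minus strand: gttgacaaagatgaCTACCTCA
TRIM71 at chr3:32895806-32895827, plus strand: cttttgctgagtttCTACCTCA
TRIM71 at chr3:32895829-32895850, plus strand: ttgtggcaagtcatCTACCTCA
IGF2BP1 at chr17:49051062-49051083, plus strand: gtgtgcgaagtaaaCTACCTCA
IGF2BP2 at chr3:185644220-185644241, minus strand: acacacagaagaagCTACCTCA
IGF2BP3 at chr7:23311795-23311816, minus strand: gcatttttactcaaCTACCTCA
HMGA1 at chr6:34245830-34245851, plus strand: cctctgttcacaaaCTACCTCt
ARID3B at chr15:74598102-74598123, plus strand: atttcaataaacctCTACCTCt

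The HMGA2 match started at base 21 of its 3′ untranslated region and the LIN28B match at base 44, both just after the stop codon. In TRIM71 the close pair started at bases 4009 and 4032. The ARID3B match started at base 2342 of 2357, at the very end of the transcript. HMGA1 and ARID3B were the members with no 8mer.

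Position is used below for the mean fraction number of an mRNA, weighted by its shares. The shift is the arsenite position minus the control position. The median gene lay at 4.54 without arsenite and at 3.10 with it, and the median shift was −1.46 fractions. Rescaling by size factors makes the shares of the typical gene alike across libraries, so it removes most of a common shift by construction. The median shift was then −0.23, which does not test the common move. How the fractions were scaled is not given, so moves are read here relative to the median gene. The relative shift is the shift minus the median shift. A gene is said to have moved when its relative shift was 0.5 fractions or more in either direction and no fraction number, left out of both gradients in turn, reversed it. By this rule 23.6% of all genes moved to higher and 24.0% to lower fraction numbers. This is an order among genes and not a test.

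In the deposited shares all 9 mRNAs lay at lower fraction numbers with arsenite than without, as did 12920 of the 13148 genes. With size factors, which remove most of the common shift, 4 of the 9 did, and the count over all genes is not given. Only moves relative to the median gene are therefore called. NR6A1, LIN28B and TRIM71 moved higher relative to the median gene, HMGA1 moved lower, and HMGA2, ARID3B and the 3 IGF2BP mRNAs met neither rule. The counts were 3 of 9 higher (33.3%) and 1 of 9 lower (11.1%), beside the 23.6% and 24.0% of all genes. With size factors 3 members moved higher and 2 lower, beside 3774 and 3471 of the 13148 genes. For so few mRNAs these shares are not a difference from the table as a whole. The median relative shift of the members was 0.32, with a range from −0.52 to 1.24. It was 0.14 without fraction 5, 0.18 without fraction 7 and 0.20 without fraction 1, while the quartiles of all genes were −0.52 and 0.48. The share of an mRNA that would have to change fraction to turn its control profile into its arsenite profile was 7.32% for LIN28B, 12.2% for NR6A1 and 20.4% for TRIM71. It was 60.9% for HMGA1.

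**Figure D1:**
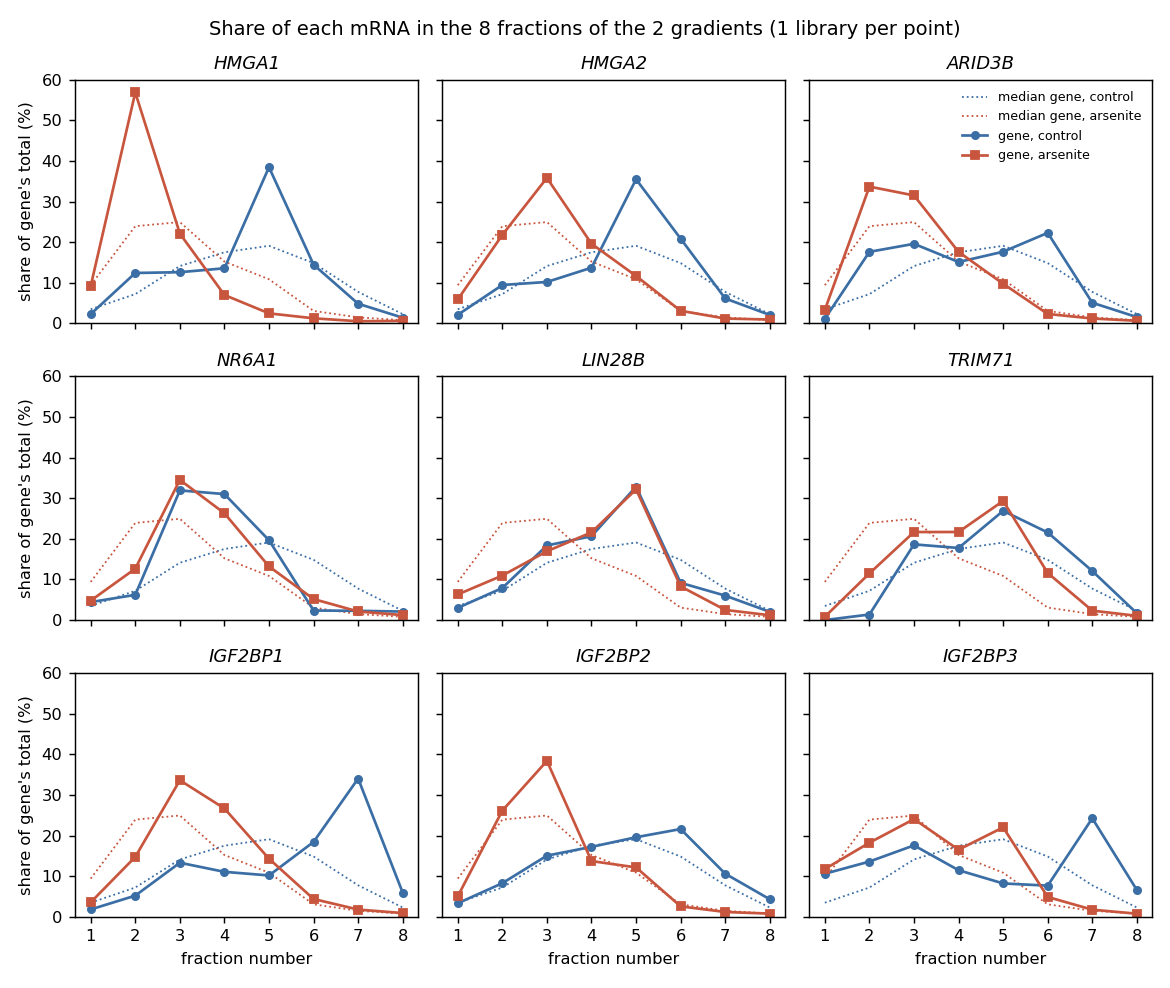
Share of each gene's total (vertical axis, %) in fractions 1 to 8 (horizontal axis) of the control gradient (blue circles) and the arsenite gradient (red squares), with 1 library per point, and the median share over all genes as dotted lines. The curves of LIN28B and NR6A1 nearly coincide, whereas HMGA1 has its peak in fraction 5 in the control and in fraction 2 with arsenite.

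LIN28B, the RNA-binding protein that stops let-7 maturation, kept almost the same profile in both gradients in the deposited shares, and with size factors its position was 1.01 fractions higher with arsenite. Its shares in control fractions 1 to 8 were 2.999%, 7.90%, 18.4%, 20.7%, 32.9%, 9.17%, 6.02% and 2.03%. With arsenite they were 6.31%, 10.97%, 16.9%, 21.6%, 32.2%, 8.29%, 2.50% and 1.19%. Fraction 5 was the largest fraction in both, although with arsenite this fraction was the largest for only 8.43% of all genes. LIN28B had a position of 4.34 without and 4.03 with arsenite, a relative shift of 1.15. LIN28B went from lying above 36.6% of all genes in the control to above 94.5% with arsenite. It kept 44.2% of its total in fractions 5 to 8, from 50.1% in the control, where the medians of all genes were 16.4% and 53.9%. Among the 1305 genes of like mRNA length its relative shift was above that of 95.9%.

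NR6A1, an orphan nuclear receptor that silences pluripotency genes as embryonic cells differentiate, lay low in the control and at nearly the same place with arsenite, though with size factors its position was 1.35 fractions higher. In the control its shares were 4.43%, 6.21%, 31.9%, 31.0%, 19.7%, 2.36%, 2.27% and 2.10%. The arsenite shares were 4.78%, 12.7%, 34.5%, 26.3%, 13.2%, 5.17%, 2.11% and 1.23%. Fraction 3 was the largest in both gradients, and the share in fraction 6 was higher with arsenite than in the control. The control position of 3.82 was above that of only 11.7% of genes. The arsenite position of 3.61 was above that of 80.8%, and the relative shift was 1.24. Genes that lay low in the control tended to have higher shifts (Spearman's rho −0.55 across all genes, which share libraries). The control position is subtracted within the shift, so a negative value arises in part by construction. Against genes of like control position NR6A1 lay 0.78 fractions above the median.

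TRIM71, the LIN-41 protein of stem cells that binds mRNAs and can act as a ubiquitin ligase, reached the highest arsenite position of the members. In the control it was listed at 0 in fraction 1, and fractions 2 to 8 held 1.37%, 18.6%, 17.8%, 26.9%, 21.6%, 12.1% and 1.68%. With arsenite the 8 shares were 0.81%, 11.5%, 21.7%, 21.7%, 29.3%, 11.6%, 2.32% and 1.04%. Shares were lower in fractions 6 and 7 and higher in fraction 2, yet the peak stayed in fraction 5. Its 11.6% in arsenite fraction 6 was more than that of 98.8% of all genes. TRIM71 had positions of 4.92 and 4.17, the latter above 96.7% of genes, and the relative shift was 0.70. This call did not hold with size factors (0.43), without fraction 5 (0.48), or when compared with genes of like mRNA length (0.26), the longest 10% of mRNAs.

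LIN28B and TRIM71 were 18.7% of the total apart in the control and 8.67% apart with arsenite. The medians over the 36 pairs of members were 28.3% and 22.9%, so this pair was nearer than most in both gradients. The calls of LIN28B and NR6A1 held under all 14 alternatives tried at the 0.5 threshold, with relative shifts from 0.94 to 1.54 for LIN28B and from 0.78 to 1.58 for NR6A1. Both also exceeded a threshold of 1 fraction.

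**Figure D2:**
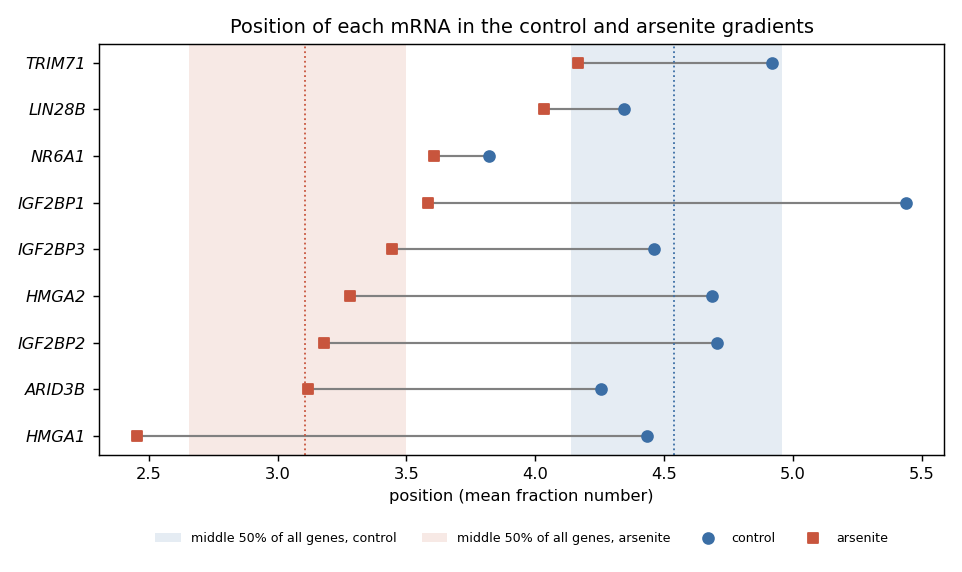
Position (mean fraction number, horizontal axis) of each mRNA in the control gradient (blue circles) and the arsenite gradient (red squares), 1 gradient each, joined by a line, with bands for the middle 50% of all genes and dotted lines for their medians. TRIM71, LIN28B, NR6A1 and IGF2BP1 lie above the arsenite band and HMGA1 below it.

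HMGA1 and HMGA2 are AT-hook proteins that bend DNA and help to build enhancer complexes, and their coding sequences are similarly short, at 324 and 330 nt. Their control profiles were the closest of the 36 pairs of members, 8.50% apart, and with arsenite they were 38.4% apart. HMGA1 had 2.28%, 12.4%, 12.6%, 13.6%, 38.5%, 14.5%, 4.84% and 1.39% in control fractions 1 to 8. With arsenite it had 9.20%, 56.9%, 22.1%, 6.99%, 2.46%, 1.24%, 0.52% and 0.61%. The 56.9% in fraction 2 was more than 98.4% of genes had there, and fractions 5 to 8 together held 59.1% without and 4.84% with arsenite. HMGA1 lay at 4.43 and 2.46, a relative shift of −0.52, the only member that moved lower.

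This call of HMGA1 was marginal. It was lost under 8 of the 14 alternatives, though the sign was the same in each, with values from −0.70 to −0.14. Without fraction 5, which held its control peak, the relative shift was −0.14. The annotation lists 7 pseudogenes of HMGA1, and the sources used here do not give how reads shared with them were counted, so its values are uncertain.

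For HMGA2, the let-7 target best known from tumours in which its 3′ region is lost, the control shares were 2.11%, 9.45%, 10.2%, 13.7%, 35.5%, 20.9%, 6.12% and 2.07%. The arsenite shares were 5.89%, 21.8%, 35.8%, 19.6%, 11.7%, 3.09%, 1.18% and 0.94%. Its peak was thus in fraction 5 without and in fraction 3 with arsenite. HMGA2 lay at 4.68 and 3.28, and its relative shift of 0.05 placed it in the middle of the table, above 52.8% of genes. It met neither rule under any of the 14 alternatives, with values from −0.08 to 0.22. HMGA2 has 4 let-7 matches, as LIN28B does, and they were 29.7% apart with arsenite.

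ARID3B, a DNA-binding protein with an AT-rich interaction domain, had a broad control profile, with 1.14%, 17.6%, 19.6%, 15.1%, 17.6%, 22.3%, 5.08% and 1.55%. With arsenite the shares were 3.31%, 33.7%, 31.5%, 17.6%, 9.76%, 2.31%, 1.199% and 0.63%, so fractions 2 and 3 held most of it. ARID3B lay at 4.25 and 3.12. The relative shift of 0.32 did not meet the rule, but it did with size factors (0.51) and without fraction 6 (0.57).

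The 3 IGF2BP mRNAs encode closely related proteins with like coding lengths of 1734, 1800 and 1740 nt. In the control they differed most in fraction 7, which held 34.0% of IGF2BP1, 10.6% of IGF2BP2 and 24.3% of IGF2BP3. That fraction was the largest for 14.9% of all genes. With arsenite the same fraction held 1.78%, 1.18% and 1.75%, near the 1.47% of the median gene. The positions of the 3 mRNAs spanned 4.46 to 5.44 in the control and 3.18 to 3.58 with arsenite.

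IGF2BP1 was the member that lay farthest along in untreated cells. Its control shares were 1.81%, 5.21%, 13.3%, 11.1%, 10.2%, 18.4%, 34.0% and 5.94%, and its position of 5.44 was above that of 92.6% of genes. With arsenite the shares were 3.56%, 14.8%, 33.6%, 26.7%, 14.3%, 4.38%, 1.78% and 0.92%, and the position was 3.58. The relative shift of −0.40 did not meet the rule, and its direction depended on the comparison. It was −0.73 with size factors and −0.85 against genes of like mRNA length, both of which met the rule. Without fraction 1 (−0.54) or 5 (−0.59) it met the rule as well. By contrast it was 0.22 against genes of like control position and 0.10 without fraction 7.

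IGF2BP1 and NR6A1 were the most different pair of members in the control, 51.7% apart, and the most alike with arsenite, 3.55% apart. In arsenite fractions 3 and 4 IGF2BP1 had 33.6% and 26.7% and NR6A1 had 34.5% and 26.3%. Over the 36 pairs the median distance was 28.3% in the control and 22.9% with arsenite.

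IGF2BP2 lay near the median gene by position. Its profile was less typical, as its 38.4% in arsenite fraction 3 was more than that of 91.9% of genes. IGF2BP2 had 3.32%, 8.28%, 15.1%, 17.2%, 19.6%, 21.6%, 10.6% and 4.31% in the control fractions. Its arsenite shares were 5.05%, 26.2%, 38.4%, 13.7%, 12.2%, 2.56%, 1.18% and 0.78%. Its positions were 4.70 and 3.18, and the relative shift of −0.07 met neither rule under any of the 14 alternatives.

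IGF2BP3 had a control profile with separate high points, in fractions 3 and 7. The shares were 10.6%, 13.6%, 17.6%, 11.5%, 8.21%, 7.67%, 24.3% and 6.60%. Its share in control fraction 1 exceeded that of 92.7% of genes and its share in fraction 7 that of 87.0%. With arsenite the shares were 11.8%, 18.2%, 24.1%, 16.5%, 22.0%, 4.88%, 1.75% and 0.76%, so fraction 5 held more than in the control while fraction 7 was nearly emptied. With 1 percentage point added to each share, which understates changes of small shares, the log2 ratio of arsenite to control was 1.32 in fraction 5 and −3.20 in fraction 7.

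Position was 4.46 and 3.44, and the relative shift of IGF2BP3 was 0.44. The rule was met without fraction 4 (0.51), 7 (0.94) or 8 (0.59) and by the point at which 50% of the total was reached (0.93). The exons of IGF2BP3 overlap those of MALSU1, a mitochondrial ribosome factor on the opposite strand, and the sources used here do not give the treatment of strand. MALSU1 lay at 4.30 and 1.66, a relative shift of −1.18, and its part in the IGF2BP3 profile was not tested. The exons of HMGA2, LIN28B and IGF2BP1 each overlap a noncoding antisense gene that is not a row of the table.

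**Figure D3:**
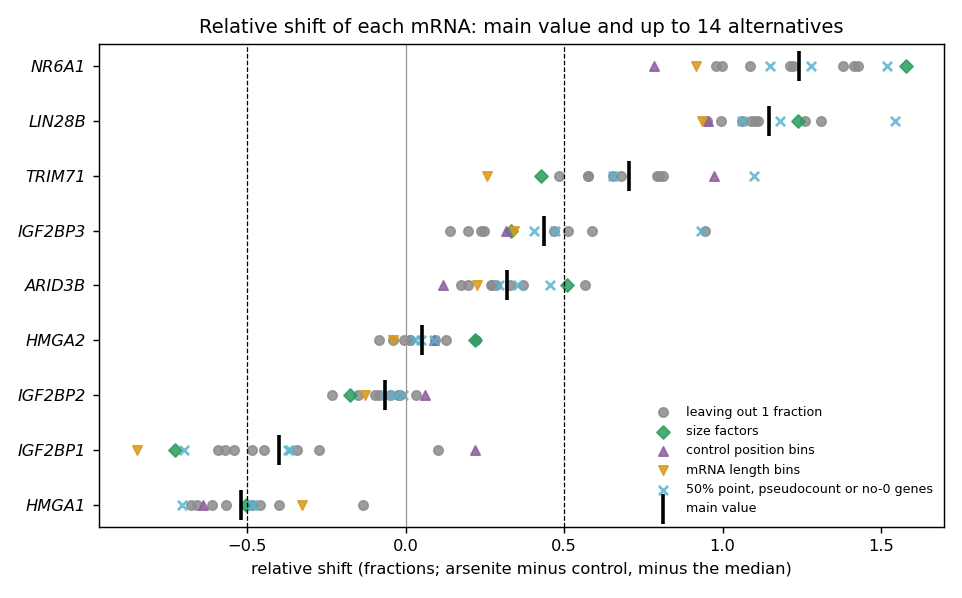
Relative shift in fractions (horizontal axis) of each mRNA, with the main value as a black bar and the alternatives as coloured marks, and dashed lines at the call threshold of 0.5 in each direction. NR6A1 and LIN28B lie beyond 0.5 throughout, HMGA2 and IGF2BP2 stay between the dashed lines, and IGF2BP1 spreads from −0.85 to 0.22.

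By the sum of absolute differences over the 16 shares, in percentage points, and among genes with no 0, the profiles most like LIN28B were those of SLC16A14 (30.5), ZNF585B (34.1) and ZNF772 (34.7). The median gene was 123 points from LIN28B. For NR6A1 they were FOXN3 (23.1), CHIC1 (27.5) and PHACTR2 (30.4), and for TRIM71 KLF13 (34.5), C3orf19 (36.3) and ZNF772 (36.3). HMGA1 was nearest to LPCAT3 (21.7), SH3GL1 (24.5) and SCAMP4 (25.01). HMGA2 was nearest to ATXN7L3B (20.03), FOXP4 (21.0) and SLC7A5 (21.6), and ARID3B to GIT1 (20.1), HDAC7 (23.4) and TBC1D13 (23.8). Closest to IGF2BP1 were SMARCC2 (17.0), KIAA0664 (17.1) and TSC2 (17.7). WBP4 (19.2), SREBF2 (21.0) and NEK3 (21.1) were closest to IGF2BP2. ZNF624 (28.6), the let-7 target DNA2 (28.8) and RABGAP1L (32.1) were closest to IGF2BP3.

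Of 50 further genes known or predicted as let-7 targets 49 were measured, and LIN28A was not analysed here. Among them 18 moved higher (36.7%) and 4 lower (8.16%), leaving 27 that met neither rule, beside 23.6% and 24.0% of all genes. Set against genes of like mRNA length, 13 of the 49 moved higher and 5 lower. Against genes of like control position the counts were 15 and 5. The share of all genes called in either comparison is not given, so these counts cannot be set against the table. The median relative shift was 0.22, 0.14 when each gene was set against genes of like mRNA length, and 0.42 without fraction 3. The list held long mRNAs, with a median of 4563 nt against 3289 nt for all matched genes, and 35 of the 49 had a let-7 match. The highest value was that of BACH1, a repressor of oxidative stress genes, at 3.33 without and 3.19 with arsenite (1.31). The lowest was that of RRM2, a subunit of ribonucleotide reductase, at 5.52 and 2.88 (−1.18). The genes that moved lower were RRM2, PGRMC1 (−1.01), CDC25A (−0.62) and MYC (−0.61), of which MYC had a value of 0.04 against genes of like mRNA length.

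**Figure D4:**
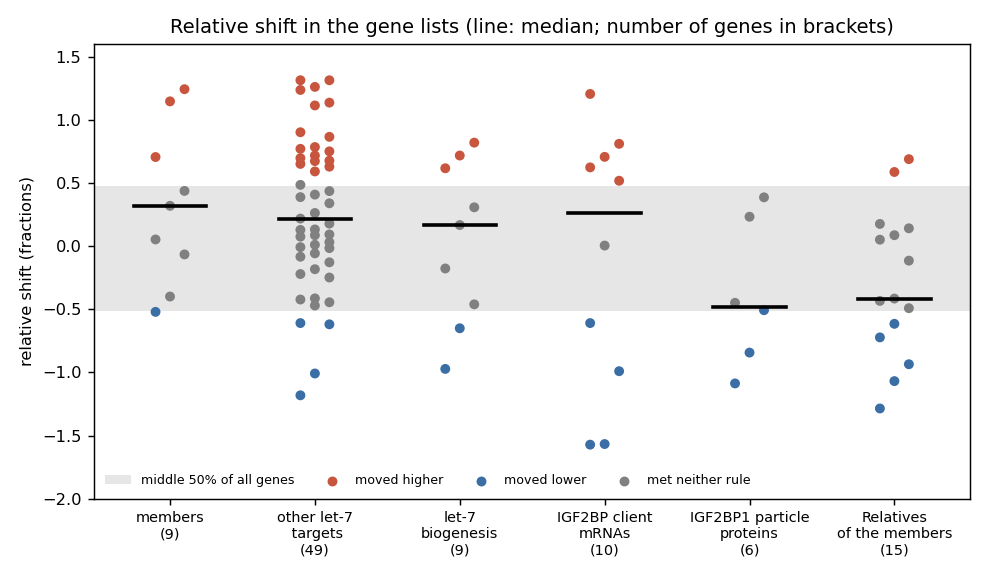
Relative shift in fractions (vertical axis) of every measured gene of 6 lists (horizontal axis), coloured by call, with the median as a line and the middle 50% of all genes as a grey band. Of the other let-7 targets 18 lie among the higher calls and 4 among the lower, beside 23.6% and 24.0% of all genes. In bins of mRNA length the counts are 13 and 5, and the share of all genes is not given. The median lines of 4 lists lie above 0, of which that of the IGF2BP clients falls to −0.08 with size factors.

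Across all matched genes, with the members left out, the relative shift was higher with more let-7 matches. Medians were −0.03 for the 11735 genes with none, 0.18 for 1163 genes with 1, 0.31 for 118 genes with 2 and 0.59 for 24 genes with at least 3. In the same order 22.8%, 28.9%, 34.7% and 58.3% moved higher and 25.2%, 15.3%, 7.63% and 8.33% lower. The length of the mRNA moved with the number of matches, with medians of 3112, 4886, 6990 and 8343 nt. Centred within bins of mRNA length, an alternative chosen after the data were seen, the medians were −0.002, 0.01, 0.01 and 0.26. The classes with 1 and 2 matches then differed little from genes with none, and the value of 0.26 rests on 24 genes. Of the 5 members with at least 4 matches, 3 moved higher, beside 23.6% of all genes, while HMGA2 and IGF2BP1 met neither rule. Against genes of like mRNA length TRIM71 (0.26) met neither rule and IGF2BP1 (−0.85) moved lower. With so few genes these counts are not read as a difference from the table.

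**Figure D5:**
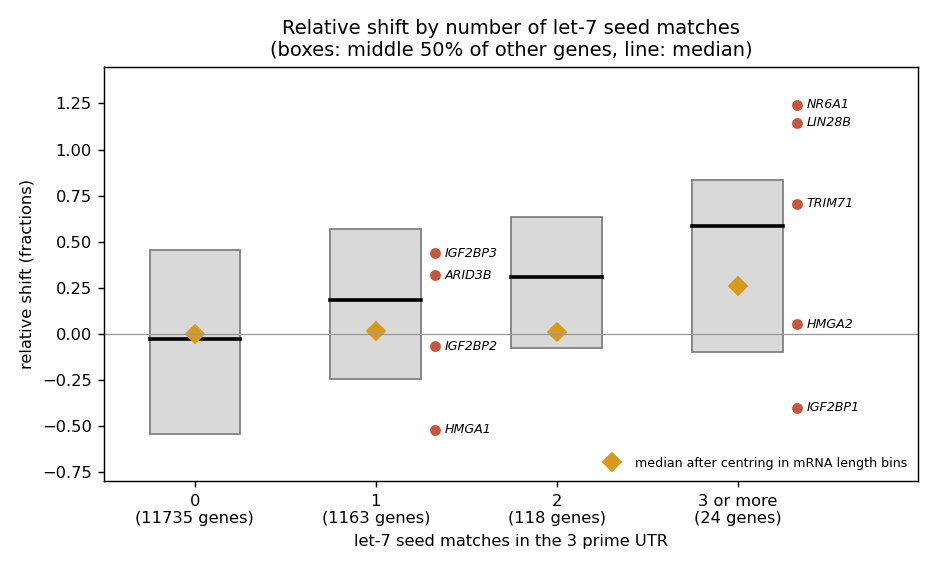
Relative shift in fractions (vertical axis) by number of let-7 seed matches in the 3′ untranslated region (horizontal axis) for genes other than the members, as boxes of the middle 50% with the median as a line, medians centred within mRNA length bins as diamonds, and the members as red points. The medians run from −0.03 to 0.59 before and from −0.002 to 0.26 after that centring.

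Of 9 measured genes that make or destroy let-7, 3 moved higher (33.3%) and 2 lower (22.2%), near the 23.6% and 24.0% of all genes. With size factors the counts were 3 and 3, beside 3774 and 3471 of the 13148 genes, and the median relative shift of 0.17 became 0.04. Those that moved higher were ZCCHC11 (0.82), a uridylyl transferase recruited by LIN28, DICER1 (0.72), which cuts the precursor and is itself a let-7 target, and DGCR8 (0.62), the partner of DROSHA. XPO5 (−0.97), the exporter of precursors, and DIS3L2 (−0.65), the exonuclease that degrades uridylated pre-let-7, moved lower. Against genes of like control position XPO5 had −0.13 and DIS3L2 −0.29, but against genes of like mRNA length −1.18 and −0.71. By that length comparison ZCCHC11 had 0.49, DICER1 0.27 and DGCR8 0.52.

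Among 10 mRNAs known to be bound by IGF2BP proteins 5 moved higher and 4 lower, beside 23.6% and 24.0% of all genes, and the median of 0.26 was −0.08 with size factors. With so few genes these counts are not read as a difference from the table. IGF2, the growth factor mRNA that gave the family its name, lay at 3.67 and 3.42 (1.204), though with size factors its relative shift was 0.51. Its exons are shared with a read-through gene, so its values are uncertain. MAPK4 (0.71), MKI67 (0.62) and SRF (0.52) were among the others that moved higher, but MKI67 had a value of −0.23 with size factors. CTNNB1, beta-catenin, lay at 6.16 and 3.13 (−1.57), and ACTB, the beta-actin mRNA that IGF2BP1 is known to carry, at 5.40 and 2.37 (−1.57). CD44 (−0.99) and, as given above, MYC moved lower as well. Of 6 mRNAs for proteins found with IGF2BP1 in its mRNA particle none moved higher and 3 moved lower, beside the same shares of all genes, namely HNRNPU (−1.09), ELAVL1 (−0.84) and DHX9 (−0.51). Against genes of like control position the list's median of −0.48 was −0.22, and DHX9 had a value of 0.33. YBX1 (0.39) had the highest value and met neither rule. With size factors 1 of the 6 moved higher and 4 lower, beside 3774 and 3471 of the 13148 genes. YBX1 had a value of 0.68 with size factors and of −0.40 against genes of like control position.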

How the data were processed

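The authors deposited 1 table of 13148 genes, with 1 row per gene over exons of RefSeq genes, per the file headers. Its 16 library columns hold a fraction from 0 to 1, the share of a gene's total in each fraction of its gradient, and the 8 shares of a gradient sum to 1. The authors also deposited a score, the mean fraction number of each gene per gradient and the difference, which recomputation matched within 1.04e-14. The submitters' processing notes name hg19 as the build. The sources used here do not give the aligner, counting, use of strand, gene filter or how fractions were scaled, and the depth is unknown, so no interval is given. Of the genes, 1523 had a 0 in at least 1 library, among them TRIM71.

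Groups came from the sample titles. The members and lists were chosen with earlier results of these data known. All members were named, and of each list the genes with the largest and smallest relative shift, the moved genes where 5 or fewer moved in a direction, and the 3 nearest profiles of each member. Some genes that this rule selects are not reported here. Python 3.11.15, numpy 2.4.6 and pandas 2.3.3 were used. The calls were also tried on simulated data with assumed depths and no variation between gradients beyond sampling. That trial cannot show how the calls would hold in a replicate. Size factors were medians of ratios over genes with no 0, and like control position or mRNA length meant 20 or 10 equal-sized bins. GENCODE release 29 transcripts, principal isoform first, matched 13049 genes (99.2%), 734 by an older symbol in RefSeq. That annotation is on GRCh38, so its coordinates are not those of the authors' build.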

Additional observations from a re-analysis of the deposited data

How the results depend on the processing

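The libraries have 1 sample per group, so no replicate could be left out. No paired analysis was possible because each treatment and fraction has 1 library. With size factors, which remove most of a common shift by construction, the median shift of all genes was −0.23, against −1.46 in the deposited shares. This does not test the common move, and directions are given relative to the median gene only. The number of members that moved higher was 3. It was 2 without fraction 5, at a threshold of 1, in mRNA length bins and over genes with no 0, 4 without fraction 4, 6, 7 or 8 and by the point of 50%, and 5 at a threshold of 0.25. The number that moved lower was 1. It was 2 with size factors and without fraction 1, as IGF2BP1 was then called too. Without fraction 5 and in mRNA length bins it stayed 1, but the member called was IGF2BP1 and not HMGA1. The number was 0 when 1 percentage point was added before taking shares, without fraction 2, 4 or 6, by the point of 50%, at a threshold of 1, and over genes with no 0, which leaves out TRIM71. Of the other let-7 targets 8 moved lower at a threshold of 0.25, and at a threshold of 1, 6 moved higher and 2 lower. Apart from size factors, the share of all genes called under each alternative is not given, so these counts cannot be set against the table. The median relative shifts of both lists kept their sign under every alternative, the share in fractions 5 to 8 included. For genes with 2 let-7 matches the median of 0.31 was 0.012 in bins of mRNA length and −0.014 in bins of 3′ untranslated length. For those with at least 3 the 0.59 was 0.26 and 0.28. The length bins were chosen after seeing the data, and the cause was not tested further. The share in fractions 5 to 8 gives a direction and no call. The log2 ratios of the members kept their direction at pseudocounts of 0.1 and 10.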

Other observations

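Of 15 relatives of the members, among them the let-7 target ARID3A, 2 moved higher (13.3%) and 5 lower (33.3%), beside 23.6% and 24.0% of all genes. Their median relative shift was −0.42, and their mRNAs were short, with a median of 2494 nt. That median was −0.24 against genes of like mRNA length and −0.16 against genes of like control position. The 5 that moved lower encode chromatin proteins of the HMG group, HMGN3 (−1.29), HMGB1 (−1.07), HMGB2 (−0.94), HMGN2 (−0.72) and HMGN5 (−0.62). With size factors HMGN3 (−1.65) and HMGN2 (−1.01) kept their direction, but their calls were lost because leaving out a fraction reversed the sign. HMGN2 had a value of −0.07 against genes of like mRNA length. HMGN1 (0.14, or −0.32 against genes of like control position), chosen after its value was seen, met neither rule. Many HMG genes have processed pseudogenes, so these values are uncertain. The nuclear receptor NR2C2 (0.69) and TRIM2 (0.59), a relative of TRIM71, moved higher, though TRIM2 had 0.26 against genes of like mRNA length. ARID3A had a value of 0.09, or −0.02 with size factors, and was likewise chosen after its value was seen.

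Some genes other than the members also held at least 4 let-7 matches, and those given here were named after their values were seen. ZBTB37 (0.85), IGDCC3 (0.63) and HIC2 (0.59) moved higher, SMC1A (−0.24) and LIMD2 (−0.42) met neither rule, and HEMK1 (−0.52) moved lower. Of all genes 23.6% moved higher and 24.0% lower. With size factors IGDCC3 (0.44) met neither rule, while SMC1A (−0.79) and LIMD2 (−0.88) moved lower. Against genes of like mRNA length ZBTB37 had a value of 0.41 and HIC2 of 0.27.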
